A study of Mus musculus with 8 samples.

Results

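Translation initiation factors are the proteins that bring the ribosome, the initiator tRNA and the 5′ end of an mRNA together. They were taken as every protein-coding gene whose symbol begins with Eif and a digit from 1 to 6. The rule found 55 of the 55487 genes in the count table. Of these, 53 had enough counts to be tested among 12060 tested genes, and the other 2, the cap-binding paralog Eif4e1b and the eIF4E-binding protein Eif4ebp3, had 0 counts in all 8 libraries. For Eif4ebp3, 100% of the 50-base words in the last 300 bases of its transcript also occur in the annotated gene AC115631.1, so the 0 may not reflect its RNA.

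Muscle stem cells (MuSCs) were sorted by FACS as lineage-negative, CD34+ and ITGA7+ cells from aged male C57BL/6JRj mice, which were wild type. The study's methods give 23 to 25 months for its aged mice and 23 to 24 months for its MuSC cultures. The cells were seeded in growth medium for 72 hours with nicotinamide and pyridoxine (NAM/PN), given as 1 mM for the combination without separate values, or with vehicle. The vehicle is labelled 1% DMSO, while the study's methods for MuSC cultures give 0.5%. Cells of 8 mice were combined into 4 pools of 2 mice, and each pool gave 1 vehicle and 1 NAM/PN library, so the groups have 4 libraries each. Where 4 values are given for a group, they follow pools 1 to 4. RNA was read from the 3′ end of transcripts, which gives about 1 fragment per transcript whatever its length, and levels are given as CPM (the counts of a gene scaled to a common library total) after TMM normalization, without division by length. A pool mixes 2 animals, and p-values measure the spread between these 4 pools and their separate cultures.

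Initiation begins when eIF2, bound to GTP and the initiator methionyl-tRNA, joins the small ribosomal subunit together with eIF1, eIF1A, eIF3 and eIF5. The eIF4F complex, made of the cap-binding protein eIF4E, the scaffold eIF4G and the helicase eIF4A, loads this assembly onto the capped mRNA, and eIF5B then helps the large subunit to join. Cells restrain the process at the exchange factor eIF2B, which is inhibited when kinases phosphorylate eIF2α, and at eIF4E, which is held by 4E-binding proteins. In MuSCs, eIF2α phosphorylation is known as a brake on translation that accompanies quiescence, and its release accompanies activation.

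No initiation factor transcript passed the test between NAM/PN and vehicle. The edgeR quasi-likelihood test, with Benjamini-Hochberg adjusted p-values, called 0 of the 53 tested members at an adjusted p of 0.05, against 154 of all tested genes (1.28%). The lowest adjusted p of a member was 0.307. Adding the pool as a replicate block left the count at 0, with 156 genes called (1.29%) and a lowest adjusted p of 0.349. DESeq2 called 0 members and 2.4% of all genes, and limma's voomWithQualityWeights called 0 members and 1.92%. In edgeR, 4 members had an unadjusted p under 0.05 (Eif2ak1, Eif2b4, Eif2a and Eif3c), which is 4 of 53 where 9.28% of all tested genes did. With the replicate block added to edgeR, Eif2a was not among these (unadjusted p = 0.054), while Eif4a3 (0.042) and Eif6 (0.049) were. In bulk RNA of this kind, fewer cells of a type and less RNA per cell cannot be told apart.

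The intervals of the differences bound how far most of these transcripts could have moved. For 41 of the 53 members the 95% interval of the fold change lay within a 2-fold change either way. This is a larger share than the 40.4% of all tested genes, but genes at like CPM were not compared. The 12 members whose interval reached past 2-fold all had a mean below 60 CPM, and the 36 members at or above 60 CPM were all bounded. The median standard error of the log2 fold change was 0.20 for the members and 0.38 for all tested genes. Only 5 members had an absolute log2 fold change over 0.5, and 1 of these, Eif2ak3, was over 1.

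The median difference of the members was small and moved with single libraries. Their median log2 fold change was 0.11, against -0.0022 for all tested genes. It was 0.0432 without NAM/PN 4, 0.0545 without vehicle 4 and 0.0689 without NAM/PN 1. The median absolute log2 fold change was 0.21 for the members against 0.31 for all tested genes. The part of the members' smaller standard errors (median 0.20 against 0.38) in this was not tested. By the sign of the fold change 29 of the 53 members were higher with NAM/PN and 24 lower, where 49.8% of all tested genes were higher. Within the pools the median log2 difference of the members was 0.09 in pool 1, 0.02 in pool 2, 0.0041 in pool 3 and 0.08 in pool 4, with 35, 27, 27 and 28 members higher. Over all tested genes the median log2 difference was -0.0104, -0.0023, 0 and -0.053 in pools 1 to 4. NAM/PN was higher in all 4 pools for 6 members (Eif2ak1, Eif2ak4, Eif3d, Eif3i, Eif4a3 and Eif4ebp2), as for 8.56% of all tested genes. It was lower in all 4 pools for 4 members (Eif2a, Eif2ak3, Eif3c and Eif3l), as for 11% of all tested genes. The share of a library's raw counts that fell on the members was 1.23% ± 0.0436 (SD, n = 4) in vehicle against 1.31% ± 0.0377 (SD, n = 4) in NAM/PN libraries. The vehicle libraries spanned 1.165% to 1.265% and the NAM/PN libraries 1.271% to 1.363%, so these raw shares did not overlap, and vehicle 3, the lowest, also had 18.7% of its counts on 1 rRNA gene. The share of counts on mitochondrial genes, which enters the same total, was 7.30%, 4.73%, 3.73% and 7.54% in vehicle against 4.07%, 4.55%, 4.74% and 2.56% in NAM/PN libraries, and the part of either share in the difference was not tested. After TMM normalization the summed level of the members was 12560 ± 376 CPM (SD, n = 4) in vehicle against 12940 ± 529 CPM (SD, n = 4) in NAM/PN libraries, and the groups overlapped.

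**Figure D1:**
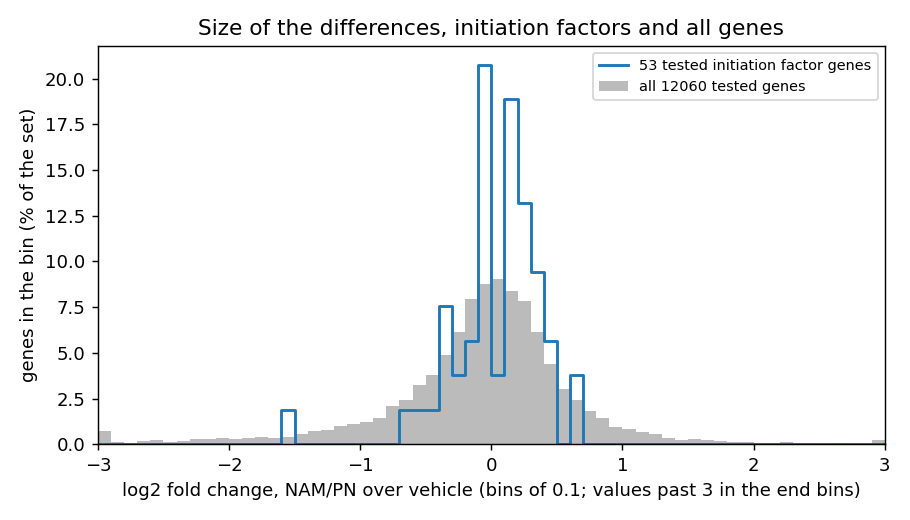
Distribution of log2 fold changes (NAM/PN over vehicle, x axis, bins of 0.1) as the percentage of each set in a bin (y axis), for all 12060 tested genes (grey bars) and the 53 tested initiation factor genes (blue line). The median absolute log2 fold change was 0.21 for the members against 0.31 for all genes. Their median standard error was also smaller, at 0.20 against 0.38, and its part in the narrower spread was not tested. Of the members, 1, Eif2ak3, lies below -1.

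Facts of the whole series bear on these values in a few ways. Library totals were between 6472484 and 10163101 counts. Vehicle 3 and NAM/PN 4 stood apart from the other libraries: the share of counts on 1 rRNA gene was 18.7% in vehicle 3 and 5.22% in NAM/PN 4, and between 9.09% and 11.6% in the others. All 6 myogenic progenitor markers were present and had a lower fitted level with NAM/PN (median log2 fold change -0.3), with a summed level of 2533 to 3087 CPM in vehicle against 2053 to 2562 CPM in NAM/PN libraries, and 0 of them were called by edgeR, with 1 at an unadjusted p under 0.05, 0 by DESeq2 and 1 by voomWithQualityWeights. By edgeR, 11 of 15 myogenic differentiation genes were called lower with NAM/PN, with a summed level of 1930 to 3612 CPM in vehicle against 329 to 891 CPM in NAM/PN libraries. The part of these lower marker levels in the values of the initiation factors was not tested. Of the markers of other cells, Pdgfra, Lum and Dpt (fibro-adipogenic), Emcn, Cldn5 and Flt1 (endothelial), Myh11 (mural) and 5 of 6 immune markers including Ptprc were at 0 in every library. Summed over each list, the immune markers lay between 0.979 and 7.58 CPM, the endothelial markers between 3.46 and 29.5 CPM and the mural markers between 33.4 and 88.8 CPM. The fibro-adipogenic sum reached 1123 CPM, which was mostly Col1a1 at 486 CPM in NAM/PN 1 and 1032 CPM in NAM/PN 2. Col1a1 itself was not called (edgeR adjusted p = 0.0709). Col3a1, of the same list, was called lower with NAM/PN, at 155 ± 7.87 CPM in vehicle against 69.2 ± 12.7 CPM in NAM/PN libraries (SD, n = 4 each, log2 fold change -1.17, edgeR adjusted p = 0.00255). The part of these markers in the values of the initiation factors was not tested.

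Both libraries that stood apart were often the extreme of their group for the members. Vehicle 3 was the lowest vehicle library for 24 members and the highest for 19, or 81.1% of the 53, against 62.3% of all tested genes. NAM/PN 4 was the lowest for 16 members and the highest for 21, or 69.8%, against 59.2% of all tested genes. With both libraries left out, a setting chosen after the data were seen, edgeR called 236 genes and again 0 members, and the median log2 fold change of the members was 0.10.

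**Figure D2:**
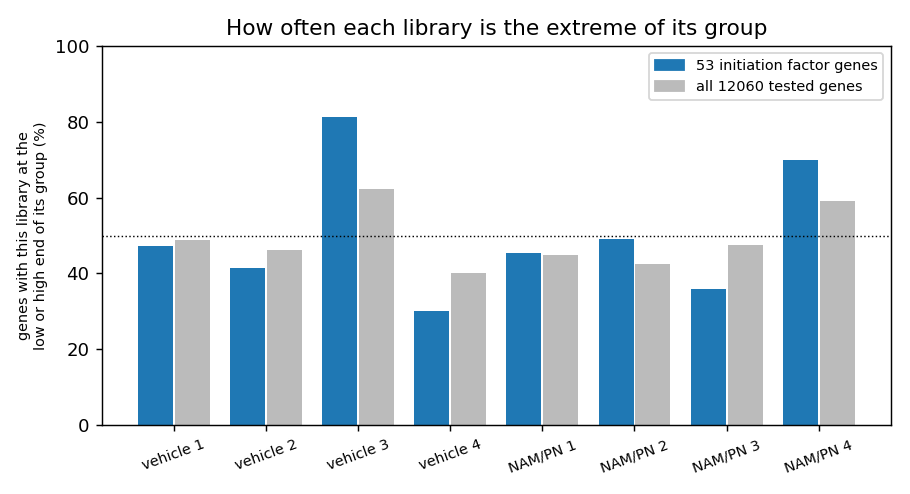
Share of genes (y axis, %) for which each of the 8 libraries (x axis) is the lowest or the highest of the 4 libraries of its group, for the 53 initiation factor genes (blue) and all 12060 tested genes (grey), with a dotted line at the 50% that the 4 libraries of a group average. Vehicle 3 (81.1% of members) and NAM/PN 4 (69.8%) lie above the line.

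Levels of the members spanned a wide range in these cells. The mean over the 8 libraries ran from 4.52 CPM for Eif2ak2 to 1316 CPM for Eif3a, with a median of 175 CPM. After Eif3a, the highest were Eif4g2 at 1228 CPM and Eif5b at 956 CPM. Among levels below 10 CPM were the kinases Eif2ak2 and Eif2ak3 and the eIF5A paralog Eif5a2.

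**Figure D3:**
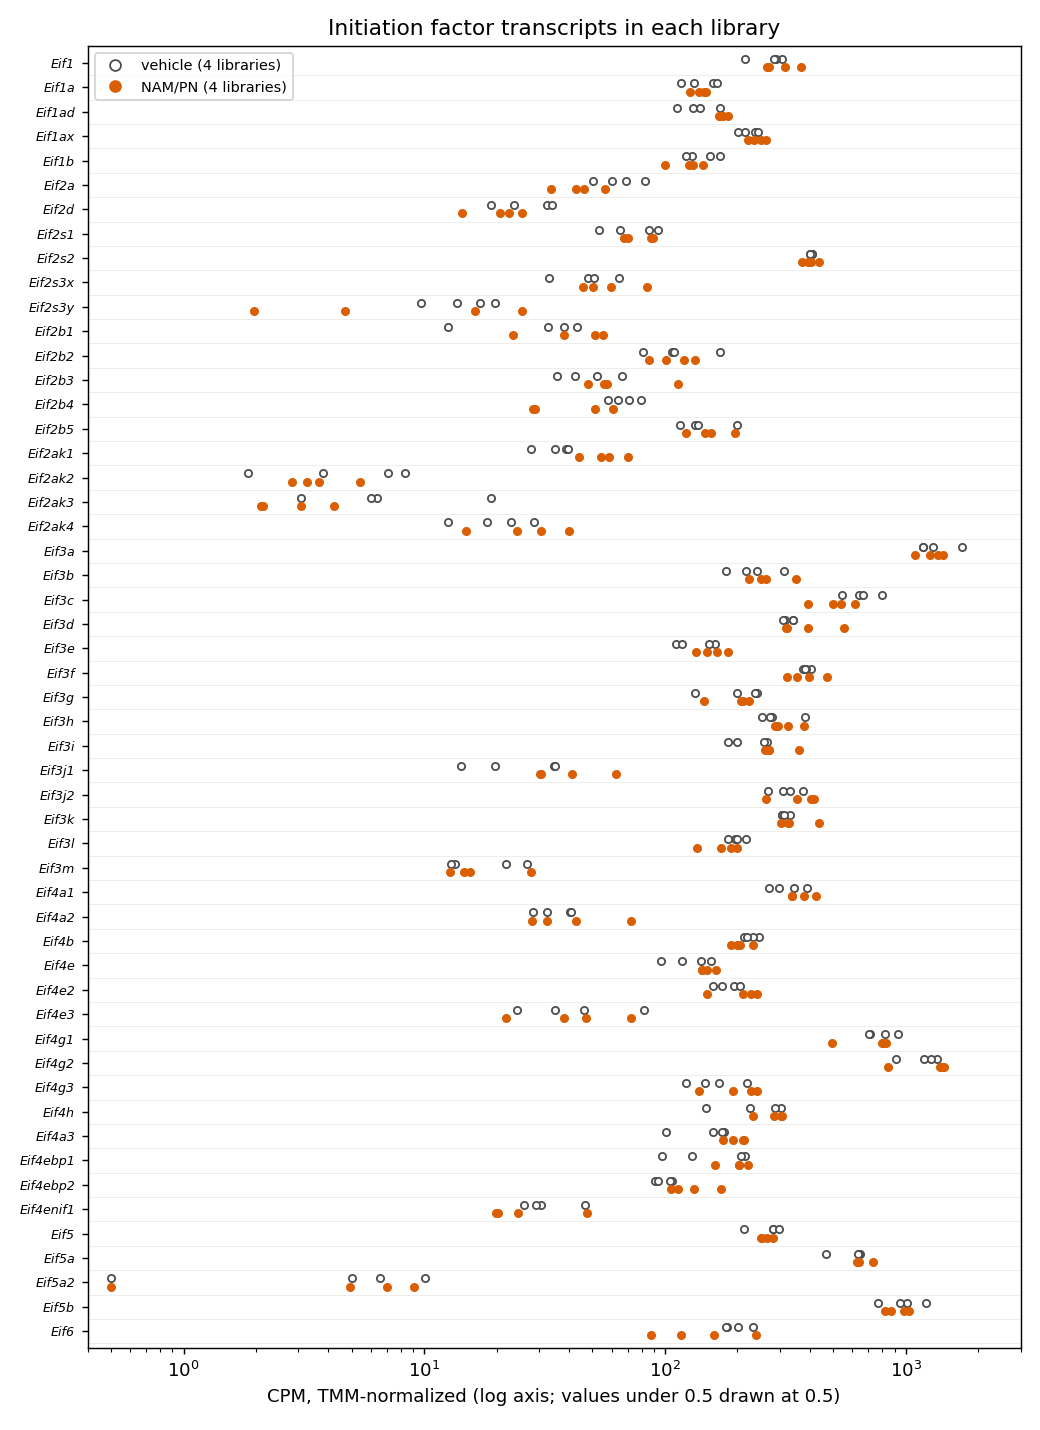
CPM (x axis, log scale) of the 53 tested initiation factor genes (y axis, in the order of their roles) in each of 4 vehicle (open circles) and 4 NAM/PN libraries (filled circles), with values under 0.5 CPM drawn at 0.5. The ranges of the groups overlap for every gene but Eif2ak1, whose NAM/PN libraries all lie above its vehicle libraries.

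Promoter letters are shown for the members because protein synthesis genes are known to carry 2 kinds of element: the E-box bound by MYC and related factors, and a start site of pyrimidines that marks mRNAs whose translation follows mTOR. RefSeq promoters (250 bases before to 50 after the start, GRCm38.p6) were matched by symbol for 43 of the 55 members and 27025 genes. The E-box CACGTG, which reads the same on both strands, was in the promoters of 10 members (23.3%): Eif1b, Eif3a, Eif3f, Eif3k, Eif4a1, Eif4e, Eif4g1, Eif4h, Eif5a and Eif5a2. It was in 8.09% of all genes with a promoter and in 12.3% of the 8858 tested genes with one. A gene was counted if the promoter of any of its annotated starts held the letters. Base composition, which differs between promoters, and the number of starts of a gene were not tested. Windows of 30 bases around it are given 5′ to 3′ on the gene's strand, with the E-box in capitals, for 4 members of the eIF3 and eIF4F complexes.
Eif3a, chr19:60790654-60790683, minus strand: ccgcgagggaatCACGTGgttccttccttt
Eif3f, chr7:108934335-108934364, plus strand: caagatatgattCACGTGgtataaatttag
Eif4e, chr3:138527192-138527221, plus strand: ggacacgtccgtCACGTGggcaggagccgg
Eif4g1, chr16:20672661-20672690, plus strand: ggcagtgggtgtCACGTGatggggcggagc

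Values of the comparison were set side by side for members with and without this E-box. The 10 that hold it had a median log2 fold change of 0.07, a range of -0.21 to 0.23, and 5 of 10 higher with NAM/PN. The 33 others with a promoter had a median of 0.08, with 17 of 33 higher. A match says only that the letters are there.

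A start at C followed by at least 4 pyrimidines was found at the annotated start of 2 of the 43 members (4.65%), Eif3f and Eif2s3x, against 3.01% of the 27025 genes and 3.01% of the 8858 tested ones. The C/EBP-ATF response element TGATGNAA, searched on both strands for its place in the response to eIF2α phosphorylation, was in 1 member promoter (2.33%), that of Eif2s3x, against 4.51% of the genes and 2.47% of the tested ones. The starts of Eif3f and Eif2s3x are shown with the pyrimidines from the annotated start onward in capitals. In both, the run of pyrimidines begins before that start. Beside them is the same window of Eif2s3y, the Y-linked copy of Eif2s3x. There a run of pyrimidines begins 1 base after the annotated start, so whether it counts rests on the placing of that start.
Eif3f, chr7:108934405-108934434, plus strand: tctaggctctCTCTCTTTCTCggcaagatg
Eif2s3x, chrX:94212632-94212661, minus strand: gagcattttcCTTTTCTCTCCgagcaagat
Eif2s3y, chrY:1010585-1010614, plus strand: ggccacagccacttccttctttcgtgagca

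Among the roles, the eIF2α kinases held the member with the smallest p. They are the sensors that stop general initiation: Eif2ak1 (HRI) responds to low heme and to mitochondrial stress, Eif2ak2 (PKR) to double-stranded RNA, Eif2ak3 (PERK) to stress in the endoplasmic reticulum and Eif2ak4 (GCN2) to lack of amino acids. Eif2ak1 (ENSMUSG00000029613, chr5:143817788-143904251, plus strand, GRCm38) was measured in vehicle libraries 1 to 4 at 39.0, 27.8, 34.8 and 39.5 CPM. In NAM/PN libraries 1 to 4 it was measured at 58.8, 43.9, 70.5 and 54.5 CPM. Every NAM/PN library lay above every vehicle library, and NAM/PN was higher in 4 of 4 pools. The log2 fold change was 0.69 (SE 0.25, 95% interval 0.16 to 1.22), with an unadjusted p of 0.014 and an adjusted p of 0.307 in edgeR, so the difference was not called. Of the 53 members, Eif2ak1 was the 1 whose NAM/PN libraries all lay above the vehicle libraries, where 2.79% of all tested genes did so. The opposite order, all NAM/PN libraries below, was seen in 0 members and 4.42% of all tested genes. Across the alternatives the log2 fold change of Eif2ak1 stayed between 0.56 and 0.80 and its adjusted p between 0.241 and 0.632.

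The other 3 kinases were at lower levels, and their intervals all reached past 2-fold. Eif2ak3 was at 6.39, 18.9, 3.09 and 5.99 CPM in vehicle against 3.08, 2.09, 2.13 and 4.20 CPM in NAM/PN libraries. Vehicle 2 was the highest by far and the ranges overlapped, and the log2 fold change of -1.57 had a 95% interval of -3.51 to 0.38 (edgeR adjusted p = 0.704). It was lower with NAM/PN in 4 of 4 pools. Eif2ak2 lay between 1.85 and 8.31 CPM over the 8 libraries, with a log2 fold change of -0.47 and an interval of -2.67 to 1.74. Eif2ak4 was at 20.5 ± 6.80 CPM (SD, n = 4) in vehicle against 27.4 ± 10.6 CPM (SD, n = 4) in NAM/PN libraries, and its log2 fold change of 0.42 had an interval of -0.39 to 1.22, with NAM/PN higher in 4 of 4 pools. Summed over the 4 kinases, the level was 69.6 ± 9.45 CPM in vehicle against 91.0 ± 17.1 CPM in NAM/PN libraries (SD, n = 4 each), with ranges of 59.9 to 77.8 and 75.7 to 107 CPM that overlapped.

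eIF2B, the guanine nucleotide exchange factor that recharges eIF2 and the point at which eIF2α phosphorylation acts, is built from 5 subunits. Eif2b4, which codes for its δ subunit (ENSMUSG00000029145, chr5:31187558-31193430, minus strand), was at 58.3, 64.0, 70.9 and 79.2 CPM in vehicle libraries 1 to 4. With NAM/PN it was at 60.7, 51.3, 28.8 and 28.3 CPM. NAM/PN 3 and NAM/PN 4 were the lowest libraries, NAM/PN 1 lay within the vehicle range, and NAM/PN was lower in 3 of 4 pools. The log2 fold change was -0.69 (SE 0.27, 95% interval -1.26 to -0.12, edgeR unadjusted p = 0.020, adjusted p = 0.362). Its sign held in every alternative, between -0.99 and -0.46.

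The other subunits had values on both sides of 0. Eif2b5, the catalytic ε subunit and the most abundant at 151 CPM, was at 116, 134, 199 and 137 CPM in vehicle against 155, 123, 146 and 195 CPM in NAM/PN libraries, with a log2 fold change of 0.08 (95% interval -0.35 to 0.51, edgeR adjusted p = 0.976). Eif2b1 (0.41), Eif2b2 (-0.08) and Eif2b3 (0.49) had log2 fold changes on either side of 0, and the value of Eif2b3 includes 113 CPM in NAM/PN 4 against 48.1 to 57.3 CPM in the other 3 NAM/PN libraries. Summed over the 5 subunits, the level was 412 ± 74.6 CPM in vehicle against 418 ± 68.9 CPM in NAM/PN libraries (SD, n = 4 each).

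eIF2 itself, the carrier of the initiator tRNA, had 3 subunits measured. The β subunit Eif2s2 was the most abundant of this group and among the steadiest members, at 399, 408, 410 and 399 CPM in vehicle against 436, 405, 373 and 394 CPM in NAM/PN libraries (log2 fold change -0.0081, 95% interval -0.31 to 0.30, edgeR adjusted p = 0.995). The α subunit Eif2s1, which the kinases phosphorylate, was at 74.5 ± 18.8 CPM in vehicle against 78.7 ± 11.4 CPM in NAM/PN libraries (SD, n = 4 each). The ranges of the groups overlapped for both subunits.

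Eif2a, which is not a subunit of eIF2 but a separate factor that can bring initiator tRNA to some mRNAs (ENSMUSG00000027810, chr3:58525821-58557501, plus strand), had the smallest p of this group. It was at 82.5, 60.3, 68.8 and 50.5 CPM in vehicle libraries 1 to 4 and at 33.6, 56.6, 42.8 and 46.0 CPM in NAM/PN libraries 1 to 4. NAM/PN was lower in 4 of 4 pools, but NAM/PN 2 lay above vehicle 4, so the groups overlapped. The log2 fold change was -0.55 (SE 0.24, 95% interval -1.06 to -0.04, edgeR unadjusted p = 0.036, adjusted p = 0.479). Over the alternatives it ranged from -0.72 to -0.31.

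The γ subunit of eIF2 has an X-linked and a Y-linked gene. Eif2s3x was at 33.0, 64.2, 47.9 and 50.9 CPM in vehicle against 59.8, 84.0, 45.8 and 50.2 CPM in NAM/PN libraries (log2 fold change 0.29, edgeR adjusted p = 0.869). Eif2s3y was at 13.6, 9.68, 19.8 and 17.1 CPM in vehicle against 1.97, 25.5, 16.3 and 4.67 CPM in NAM/PN libraries. The NAM/PN libraries held both the highest and the lowest values of Eif2s3y, and the log2 fold change of -0.32 had an interval of -1.62 to 0.99. With the pool as a replicate block it was -0.886 (edgeR adjusted p = 0.803). Its share in the counts of the pair was 24.2% ± 7.61 with vehicle and 15.3% ± 11.2 with NAM/PN (SD, n = 4 each, exact permutation p = 0.2).

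**Figure D4:**
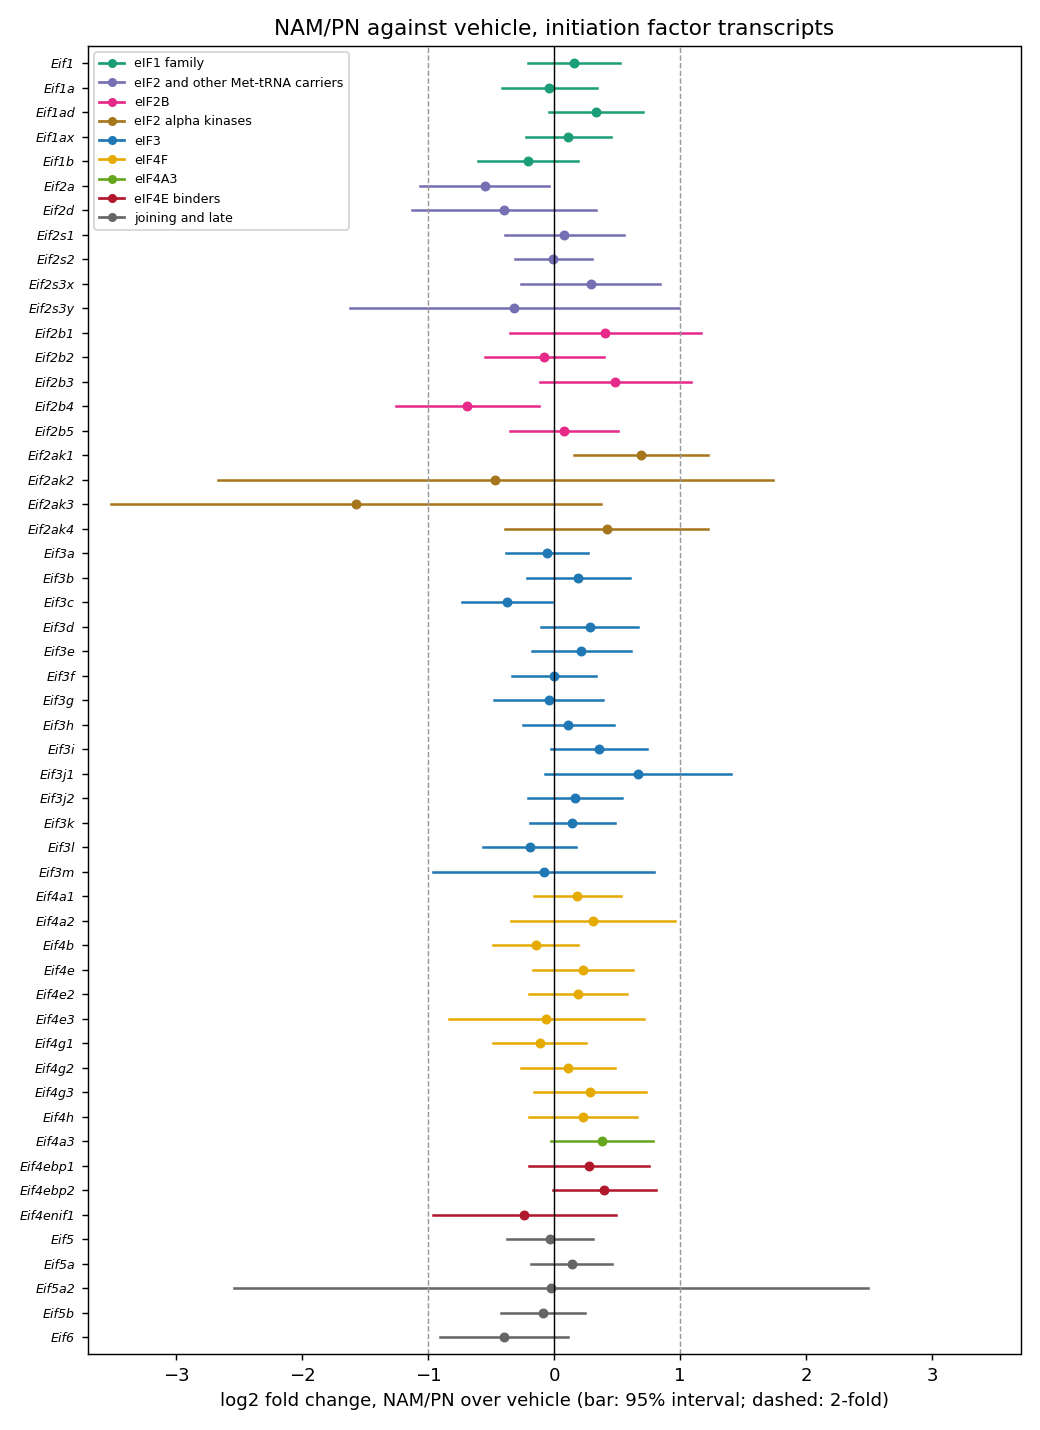
Log2 fold change of NAM/PN over vehicle (x axis, points) with its 95% interval (bars) for the 53 tested initiation factor genes (y axis), coloured by role, with dashed lines at a 2-fold change either way. Intervals are from the fit without the replicate block. They exclude 0 for Eif2a, Eif2b4, Eif2ak1 and Eif3c before adjustment, and they are widest for Eif2ak2, Eif2ak3 and Eif5a2.

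eIF3, the largest factor and the platform on which the small subunit is assembled, had 14 genes, of which 8 were higher and 6 lower with NAM/PN and 13 stayed within a log2 fold change of 0.4. Summed over the genes, the level was 4696 ± 342 CPM in vehicle against 4761 ± 215 CPM in NAM/PN libraries (SD, n = 4 each). Eif3a, the scaffold subunit, was at 1183, 1177, 1717 and 1295 CPM in vehicle against 1432, 1268, 1367 and 1092 CPM in NAM/PN libraries. Vehicle 3 was the highest library, and the log2 fold change of -0.06 had an interval of -0.38 to 0.27 (edgeR adjusted p = 0.977); its sign turned to 0.006 without TMM factors.

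Eif3c, another core subunit (ENSMUSG00000030738, chr7:126546455-126566411, minus strand), had the smallest p among them. It was at 639, 544, 795 and 663 CPM in vehicle libraries 1 to 4 and at 539, 497, 613 and 392 CPM in NAM/PN libraries 1 to 4. NAM/PN was lower in 4 of 4 pools, with NAM/PN 3 above vehicle 2, so the groups overlapped. The log2 fold change was -0.37 (SE 0.17, 95% interval -0.73 to -0.01, edgeR unadjusted p = 0.042, adjusted p = 0.4999). Over the alternatives it lay between -0.47 and -0.17.

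Most other subunits lay between 100 and 400 CPM, with 10 of the 14 genes in that range. Eif3m was at 18.2 CPM, and Eif3a was 72.3 times higher. Of the 50-base words in the last 300 bases of its transcript, 40.2% also occur in Gm7658, so reads from that stretch cannot be given to 1 gene. Smaller shares of such words were found for Eif3h (16.3%), Eif4a3 (9.56%) and Eif3i (3.59%). Eif3j1 and its copy Eif3j2 code for the loosely bound j subunit. Eif3j2 took 92.6% ± 2.54 of their summed counts with vehicle and 89.9% ± 2.35 with NAM/PN (SD, n = 4 each, exact permutation p = 0.171). Since 80.1% of the words at the end of Eif3j2 also occur in Eif3j1, the split between them is uncertain. The log2 fold changes were 0.67 for Eif3j1 (95% interval -0.07 to 1.402), which became 0.391 without NAM/PN 3 and 0.188 without pool 3, and 0.17 for Eif3j2 (95% interval -0.20 to 0.54).

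The eIF4F group recruits the mRNA. Of its 10 tested genes, 7 were higher and 3 lower with NAM/PN, and the 10 intervals all lay within 2-fold. Its summed level was 3322 ± 261 CPM in vehicle against 3507 ± 447 CPM in NAM/PN libraries (SD, n = 4 each). The cap-binding protein Eif4e was at 141, 95.9, 155 and 117 CPM in vehicle against 149, 142, 143 and 164 CPM in NAM/PN libraries (log2 fold change 0.23, 95% interval -0.16 to 0.63, edgeR adjusted p = 0.834). Vehicle 2 was the lowest library and vehicle 3 lay above 3 of the NAM/PN libraries. Without vehicle 2 the log2 fold change of Eif4e was 0.116, and without pool 3 it was 0.36.

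Among the scaffolds, Eif4g2 (DAP5), which lacks the eIF4E-binding part, was the most abundant. It was at 1190, 1352, 915 and 1271 CPM in vehicle against 1422, 1449, 1383 and 842 CPM in NAM/PN libraries. NAM/PN 4 was the lowest of all 8 libraries and the other 3 NAM/PN libraries were the highest 3; the log2 fold change was 0.11 (95% interval -0.26 to 0.48, edgeR adjusted p = 0.956), and it ranged from -0.04 to 0.30 when libraries or pools were left out. Eif4g1, the main partner of eIF4E, showed the same low value in NAM/PN 4, at 492 CPM against 797 to 831 CPM in the other NAM/PN libraries and 706 to 931 CPM with vehicle. Its log2 fold change was -0.11 (95% interval -0.48 to 0.25), and it ranged from -0.21 to 0.12 when libraries or pools were left out. Eif4g3 had the smallest p of the group, at 167, 220, 123 and 146 CPM in vehicle against 227, 241, 192 and 139 CPM in NAM/PN libraries (log2 fold change 0.28, SE 0.21, edgeR adjusted p = 0.806). It was higher in 3 of 4 pools, and the groups overlapped.

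The helicase Eif4a1 was at 325 ± 52.4 CPM in vehicle against 369 ± 41.5 CPM in NAM/PN libraries, and its paralog Eif4a2 at 35.4 ± 6.04 and 43.9 ± 19.96 CPM (SD, n = 4 each). Eif4b and Eif4h, which stimulate the helicase, had log2 fold changes of -0.15 and 0.23. Of the other cap-binding paralogs, Eif4e2 (4EHP), which takes the cap without recruiting eIF4G, was at 182 ± 20.7 CPM in vehicle against 208 ± 40.9 CPM in NAM/PN libraries, and Eif4e3 at 46.8 ± 25.02 and 44.8 ± 21.1 CPM (SD, n = 4 each). Eif4a3, an eIF4A relative that belongs to the exon junction complex and not to initiation, was at 176, 159, 101 and 172 CPM in vehicle against 212, 192, 175 and 213 CPM in NAM/PN libraries. It was higher in 4 of 4 pools, with vehicle 1 just above NAM/PN 3, and the log2 fold change was 0.38 (SE 0.19, 95% interval -0.02 to 0.78, edgeR adjusted p = 0.593). Without vehicle 3, the lowest library, this value was 0.221.

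The proteins that bind eIF4E restrain the cap-dependent step. Eif4ebp2 was at 90.8, 107, 105 and 93.2 CPM in vehicle libraries 1 to 4 and at 132, 171, 106 and 113 CPM in NAM/PN libraries 1 to 4. It was higher in 4 of 4 pools, although NAM/PN 3 lay below vehicle 2. The log2 fold change was 0.40 (SE 0.20, 95% interval -0.01 to 0.81, edgeR adjusted p = 0.566), and it was 0.242 without NAM/PN 2. Eif4ebp1 was at 216, 130, 97.7 and 207 CPM in vehicle against 203, 222, 161 and 203 CPM in NAM/PN libraries, with a log2 fold change of 0.28 (95% interval -0.20 to 0.75, edgeR adjusted p = 0.834). Vehicle 2 and vehicle 3 were the lowest libraries, and vehicle 1 and vehicle 4 lay among the NAM/PN libraries. Without vehicle 3 the log2 fold change of Eif4ebp1 was 0.0919, and without vehicle 1 it was 0.44. Eif4enif1 (4E-T), which carries eIF4E into the nucleus and to P-bodies, was at 33.0 ± 9.14 CPM in vehicle against 28.0 ± 13.2 CPM in NAM/PN libraries (SD, n = 4 each).

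The factors of subunit joining and beyond had 1 member higher and 4 lower. Eif5b, the GTPase of subunit joining, was at 1013, 767, 1215 and 949 CPM in vehicle against 1032, 868, 985 and 822 CPM in NAM/PN libraries (log2 fold change -0.09, 95% interval -0.42 to 0.24, edgeR adjusted p = 0.962). Eif5a, the hypusine-bearing factor that also eases elongation, was at 648, 640, 466 and 635 CPM in vehicle against 731, 637, 629 and 633 CPM in NAM/PN libraries. Outside vehicle 3 and NAM/PN 1, its 6 values lay between 629 and 648 CPM. Its paralog Eif5a2 was at 10.1, 6.58, 0 and 5.01 CPM in vehicle against 4.92, 9.06, 7.01 and 0.374 CPM in NAM/PN libraries. It took 0.832% ± 0.637 of their summed counts with vehicle and 0.808% ± 0.583 with NAM/PN (SD, n = 4 each, exact permutation p = 0.8). The count of 0 in vehicle 3 allows up to 3 counts, or 0.338 CPM of that library's total.

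Eif6, which keeps the large ribosomal subunit from joining too early, had the smallest p of these factors. It was at 202, 182, 232 and 179 CPM in vehicle libraries 1 to 4 and at 87.5, 117, 161 and 239 CPM in NAM/PN libraries 1 to 4. NAM/PN 1 to 3 lay below every vehicle library and NAM/PN 4 above all of them. The log2 fold change was -0.40 (SE 0.24, 95% interval -0.90 to 0.11, edgeR adjusted p = 0.729), and without NAM/PN 4 it was -0.71 (edgeR adjusted p = 0.122), the lowest adjusted p of any named member in any alternative.

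Genes named for eIF1 and eIF1A had 3 members higher and 2 lower. The factors eIF1 and eIF1A hold the ribosome open during scanning and set how strictly the start codon is chosen. Eif1ad, which carries an eIF1A-like domain and is not one of these scanning factors, had the smallest p, at 170, 130, 112 and 139 CPM in vehicle against 168, 170, 175 and 182 CPM in NAM/PN libraries (log2 fold change 0.33, SE 0.18, edgeR adjusted p = 0.627). Its NAM/PN libraries lay close together, and vehicle 1 was the only vehicle library among them. Eif1 was at 305, 290, 215 and 283 CPM in vehicle against 367, 265, 272 and 316 CPM in NAM/PN libraries (log2 fold change 0.16, edgeR adjusted p = 0.903). Eif1a and Eif1ax, autosomal and X-linked genes of eIF1A, had log2 fold changes of -0.04 and 0.11.

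Paralogs were compared as shares within a library, which do not depend on the normalization between libraries. For the 11 pairs, exact two-sided permutation of the libraries, with 70 assignments, gave no p below 0.0857, where 4 against 4 libraries allow 0.0286 at the smallest. The smallest p belonged to Eif1b, whose share in the counts of Eif1 and Eif1b was 35.8%, 30.8%, 36.3% and 35.3% in vehicle libraries 1 to 4. In NAM/PN libraries 1 to 4 it was 26.3%, 27.3%, 31.6% and 31.2%. The log2 ratio of Eif1b to Eif1 was lower by 0.36 with NAM/PN (log2 ratio difference -0.36), with vehicle 2 below NAM/PN 3 and NAM/PN 4, and the exact permutation p of 0.0857 became 0.419 after Benjamini-Hochberg adjustment over the 11 pairs. These assignments do not use the pools. Within the pools the share of Eif1b was lower with NAM/PN in 4 of 4, and an exact test paired by pool could not go below 0.125. The share of Eif4g3 with Eif4g1 was 17.3% ± 4.48 with vehicle and 21.5% ± 1.52 with NAM/PN, and that of Eif4g2 with Eif4g1 was 59.8% ± 4.04 and 63.5% ± 0.583 (SD, n = 4 each, exact permutation p = 0.143 for both). The other pairs had exact permutation p-values of 0.171 to 0.943.

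**Figure D5:**
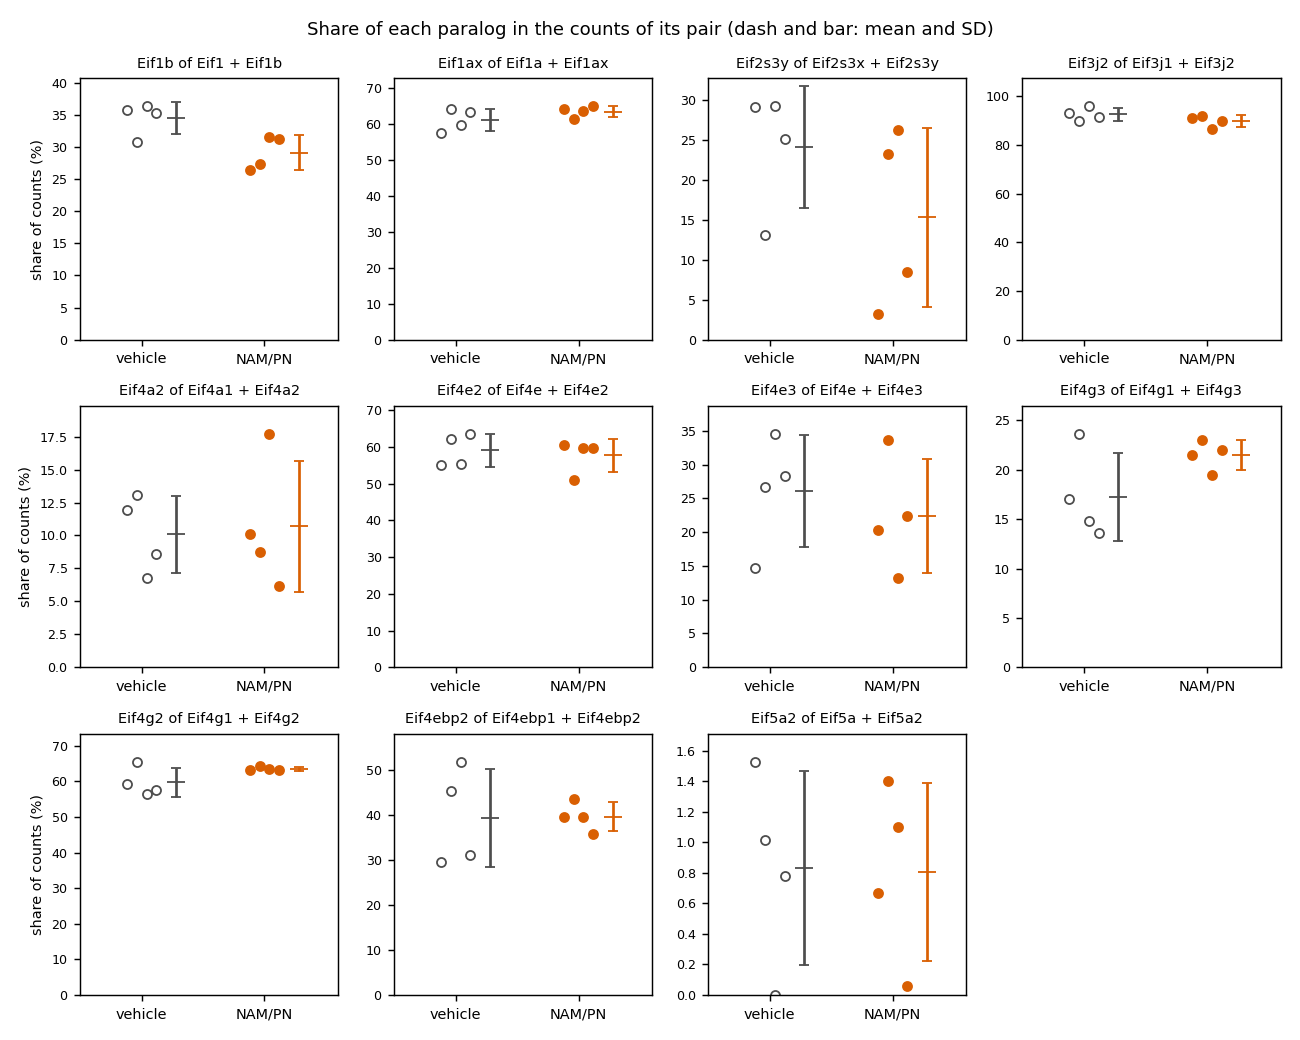
Share of the named paralog in the summed counts of its pair (y axis, %) in each of 4 vehicle (open circles) and 4 NAM/PN libraries (filled circles), with mean and SD as dash and bar, for 11 pairs. The shares overlap in every pair, and the Eif1b share is 34.5% on average with vehicle and 29.1% with NAM/PN.

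Other genes of protein synthesis outside the symbol rule were also without a called difference. Of 56 such genes in 6 lists, 53 were tested, 24 were higher and 29 lower, and edgeR with Benjamini-Hochberg adjustment called 0, where it called 1.28% of all tested genes. At an unadjusted p under 0.05 there were 5 of the 53, where 9.28% of all tested genes were, so these counts lie near those of all genes. DESeq2 and voomWithQualityWeights also called 0. In scanning, recycling and reinitiation, the smallest p belonged to Bzw2, an eIF5 mimic, at 171 ± 10.8 CPM in vehicle against 239 ± 41.1 CPM in NAM/PN libraries (SD, n = 4 each, log2 fold change 0.49, edgeR adjusted p = 0.276). Among poly(A) and cap binding partners it was the poly(A)-binding protein Pabpc4, at 932 ± 158 and 1199 ± 87.0 CPM (SD, n = 4 each, log2 fold change 0.36, edgeR adjusted p = 0.415). Both were higher in 4 of 4 pools. Bzw2 was the 1 gene of the 53 whose NAM/PN libraries all lay above the vehicle libraries, where 2.79% of all tested genes did so.

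In signalling to initiation, Pdcd4, which binds and blocks eIF4A, was at 29.3, 46.8, 26.8 and 37.8 CPM in vehicle against 18.5, 23.8, 15.1 and 14.9 CPM in NAM/PN libraries. All NAM/PN libraries lay below the vehicle libraries, as in 4.42% of all tested genes and 1 of these 53, and the log2 fold change was -0.96 (SE 0.33, edgeR adjusted p = 0.249). Atf4, whose translation rises when eIF2α is phosphorylated, was at 783 ± 150 CPM in vehicle against 726 ± 27.6 CPM in NAM/PN libraries (SD, n = 4 each, log2 fold change -0.11). In elongation, Eef2k, the kinase that inhibits the elongation factor eEF2, was at 18.6 ± 6.39 CPM in vehicle against 6.46 ± 4.30 CPM in NAM/PN libraries (SD, n = 4 each, log2 fold change -1.53, edgeR adjusted p = 0.336). In termination and mitochondrial initiation, Gspt2 and Mtfmt had the smallest p, with log2 fold changes of -0.53 and -1.16 (edgeR adjusted p = 0.826 and 0.784).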

How the data were processed

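Per the labels, RNA of cultured aged MuSCs was made into QuantSeq 3′ libraries, from 30 ng of RNA by the study's methods. The deposited values are raw read counts for each gene, which the authors made by demultiplexing, alignment to GRCm38 with STAR and counting with HTSeq (version 2.16.2 in the submitters' processing notes), without normalization or filter; annotation release, strand setting and treatment of multiply mapped reads are not given in the sources used here. A 3′ tag count carries no length factor, but reads at an end shared with a pseudogene or copy may be lost or misplaced. For that reason the last 300 bases of each member's longest protein-coding transcript were compared in words of 50 bases. By this measure 6 members shared words with another gene, and the ends of their other transcripts were not examined.

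Names, types and positions came from GENCODE M21 (GRCm38), in which 55227 identifiers of the table and 12058 tested genes were found. Genes were filtered with filterByExpr (minimum count 10, minimum total 15) and TMM-normalized, and NAM/PN was compared with vehicle by the edgeR quasi-likelihood test, adjusted by Benjamini-Hochberg across the 12060 genes tested, at 0.05. Paralog ratios used a prior count of 0.5 and exact permutation tests. R 4.3.3, edgeR 4.0.16, limma 3.58.1, DESeq2 1.42.0, Python 3.11.15 and matplotlib 3.10.9 were used. In a library, 3 counts, taken as the floor of detection, were 0.295 to 0.464 CPM; this floor covers counting error only, while the intervals of fold changes come from the edgeR fit and include the spread between libraries.

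Same-numbered libraries share a pool of mice by their labels. Deviations from the group means correlated at -0.011, 0.014, -0.033 and 0.031 within the 4 pools. Their mean was 0.00033, so the counts showed no likeness between the 2 libraries of a pool. No 2 libraries of a group had counts as close as sampling allows (lowest chi-square per degree of freedom 23.7).

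The members and lists were chosen with earlier results of these data known. Named were, in each role, the member with the smallest p and the most abundant, members without overlap of the groups, both genes of each paralog pair, the untested members, and the gene with the smallest p in each other list; further members are named with their values to complete a complex and were chosen after these were seen, as was Atf4. Alternatives were the replicate block, DESeq2, library size without TMM, upper-quartile factors, no filter, voomWithQualityWeights, a robust fit, an adjusted p of 0.10, and the omission of each library or each pool in turn.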

Additional observations from a re-analysis of the deposited data

Results flagged for a closer look

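Among 128 groups of 4 values (the CPM of each tested member and the share of each paralog, in each group), 8 held 1 library far from the other 3, by the ratio of its gap to the nearest value over the whole range (Dixon's critical value at 95%). Chance gives about 1 in 20 groups, or 6.4 of 128. NAM/PN 4 was the distant library for 4 of them. It was high for Eif2b3 at 112.8 CPM (others 48.1 to 57.3) and for Eif3i at 360.1 CPM (others 260.4 to 271). It was low for Eif4g1 at 492.3 CPM (others 797 to 831) and for Eif4g2 at 842.4 CPM (others 1383 to 1449). Over all tested genes, NAM/PN 4 was the distant library for 3.17% and the other 7 libraries for 1.09% to 2.43%.

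Eif5a was distant in both groups, at 465.5 CPM in vehicle 3 (others 635 to 648) and at 731 CPM in NAM/PN 1 (others 629 to 637). Eif4enif1 was at 47.52 CPM in NAM/PN 1 (others 19.9 to 24.5). The share of Eif4e2 in the counts of Eif4e and Eif4e2 was 51.12% in NAM/PN 2 (others 59.6% to 60.5%).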

How the results depend on the processing

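The count of initiation factor members called was 0 under all 21 alternatives. For all genes the count of 154 became 289 with DESeq2, 366 without a filter, 232 with voomWithQualityWeights, 244 at an adjusted p of 0.10 and 236 with vehicle 3 and NAM/PN 4 both left out (chosen after the data were seen), and lay between 42 and 177 when single libraries or pools were left out. With the replicate block it was 156, and the block changed the call of no member. The median log2 fold change of the members was 0.152 without TMM factors, which moved the median of all genes to 0.0548, and it ranged from 0.0432 to 0.135 on omitting a library or pool. Of 620 log2 fold changes of named members under alternatives, 47 had the opposite sign, in 11 members. Without TMM factors these were Eif1a (0.0217), Eif2s2 (0.049), Eif3a (0.00602) and Eif4e3 (0.019). With voomWithQualityWeights they were Eif1a (0.0693), Eif2s2 (0.00132), Eif3a (0.0532), Eif4e3 (0.094), Eif5a2 (0.218) and Eif5b (0.00905). With both libraries left out they were Eif1a (0.0729), Eif2s3y (0.103), Eif3a (0.146), Eif4e3 (0.315) and Eif5b (0.0732). Leaving out libraries or pools gave ranges of -0.132 to 0.031 for Eif1a, -0.0575 to 0.0315 for Eif2s2, -1.14 to 0.038 for Eif2s3y, -0.0819 to 0.287 for Eif2b5, -0.171 to 0.0761 for Eif3a, -0.135 to 0.502 for Eif4a2, -0.506 to 0.573 for Eif4e3, -0.211 to 0.122 for Eif4g1, -0.0406 to 0.298 for Eif4g2, -0.597 to 0.493 for Eif5a2 and -0.193 to 0.0218 for Eif5b. The log2 ratio differences ranged from -0.282 to 0.288 for Eif4a2 to Eif4a1, -0.16 to 0.0484 for Eif4e2 to Eif4e, -0.168 to 0.284 for Eif4ebp2 to Eif4ebp1 and -1.07 to 1.51 for Eif5a2 to Eif5a. The causes of these changes were not tested. Leaving out a library or pool moved 17 further members over 1.5 times without a change of sign. Their ranges were 0.0531 to 0.248 for Eif1, 0.0477 to 0.183 for Eif1ax, -0.28 to -0.111 for Eif1b, -0.721 to -0.308 for Eif2a, 0.0847 to 0.446 for Eif2s3x, -0.987 to -0.456 for Eif2b4, 0.188 to 0.966 for Eif3j1, 0.00708 to 0.373 for Eif3j2, 0.106 to 0.323 for Eif4a1, 0.116 to 0.36 for Eif4e, 0.108 to 0.319 for Eif4e2, 0.162 to 0.456 for Eif4g3, 0.221 to 0.454 for Eif4a3, 0.0919 to 0.44 for Eif4ebp1, 0.242 to 0.516 for Eif4ebp2, 0.0316 to 0.189 for Eif5a and -0.756 to -0.199 for Eif6. Of the 17 tested members under 60 CPM, 12 had an interval past a 2-fold change.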
